A study of Mus musculus with 17 samples.

Results

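The genes of cholesterol metabolism were examined in sorted cells of male NOD mice, whose lacrimal glands are infiltrated by lymphocytes and which serve to study Sjögren's syndrome. The set is defined by gene symbol and role. It holds 34 genes of cholesterol synthesis, sterol sensing, uptake, storage and efflux. Of these, 28 were measured among 17097 genes on the array, 16 of them in synthesis and 12 in the other roles. Acat2, Pmvk, Srebf1, Nr1h2, Abca1 and Soat1 had no probe set under their name in the annotation table used and were not analysed here. The 17 arrays held gland B cells (4), gland CD4 T cells (4), spleen B cells (3), spleen CD4 T cells (3) and gland epithelial cells (3). Both lymphocyte subsets were CD45+ cells without NKp46, CD11b or CD11c, taken as B220+ CD3- for B cells and as CD3+ CD4+ for CD4 T cells, and epithelial cells were CD45- CD326+. Gland donors were 16 weeks old. Spleen donors, the steady-state control, were 16 weeks old by the sample labels but 4 weeks old by the study's design text; if the latter holds, age and tissue cannot be told apart. Gland tissue was digested with enzymes, while the labels are silent on spleen preparation. They also do not say that replicates came from separate animals, so p-values reflect only variation among these samples, possibly technical.

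Cells make cholesterol from acetyl units through mevalonate, isoprenoids and squalene, and then trim lanosterol step by step. The pathway is controlled by the transcription factor SREBP-2, encoded by Srebf2. When membrane sterol is low, SCAP escorts SREBP-2 out of the endoplasmic reticulum and the synthesis genes are transcribed together. When sterol is ample, the INSIG proteins hold the complex back. Oxysterols, which are hydroxylated cholesterols, activate the LXR receptors, and these induce the export genes Abcg1 and Apoe. Cholesterol taken up in lipoproteins is freed in the lysosome by LIPA and carried out by NPC2 and NPC1. Dividing lymphocytes need sterol for new membrane, and the oxysterol receptor Gpr183 guides lymphocytes within lymphoid tissue.

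Synthesis genes share a promoter layout in which the CCAAT box, bound by NF-Y, stands near the SREBP site, so the upstream sequences of members that moved in these data were inspected. RefSeq promoter windows (GRCm38.p6) were found for 13 of the 16 measured synthesis genes. The 250 bases before each start were searched for CCAAT on both strands, and every one of the 13 genes held it in at least 1 window (13 of 15 windows, 86.7%). Among the promoters of all genes measured, 34.9% of 17065 windows held it. Of the 9 other members with a window, 5 held it (5 of 15 windows, 33.3%). A filter leaving out 1 chromosome was applied to the windows of members and not to those of all genes, so these counts were not made fully alike. The SREBP-type motif TCACNCCAC stood in 1 synthesis window, that of Hmgcs1, and in 1.08% of the windows of all genes measured. The E-box CACGTG, which can share letters with the end of the SREBP-type motif, stood in 3 of 15 synthesis windows against 7.38%. A match is a description of these letters and not a shown binding site. Below are Hmgcs1 as the holder of the SREBP-type motif, Mvd as the synthesis gene that fell most in gland CD4 T cells, Msmo1 as a methylsterol enzyme that fell in the same cells, and Insig1 as the feedback gene that rose in the gland. Each runs 5′ to 3′ for 250 bases and ends at the base before the start of transcription, and capitals mark CCAAT (or its complement ATTGG) and, in Hmgcs1, TCACCCCAC.
Hmgcs1 (chr13:119690101-119690350, plus strand): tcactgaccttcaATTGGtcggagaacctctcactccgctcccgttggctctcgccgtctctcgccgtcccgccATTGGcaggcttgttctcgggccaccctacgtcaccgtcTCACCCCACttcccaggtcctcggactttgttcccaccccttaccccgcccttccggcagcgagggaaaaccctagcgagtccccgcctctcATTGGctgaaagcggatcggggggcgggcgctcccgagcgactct
Mvd (chr8:122443423-122443672, minus strand): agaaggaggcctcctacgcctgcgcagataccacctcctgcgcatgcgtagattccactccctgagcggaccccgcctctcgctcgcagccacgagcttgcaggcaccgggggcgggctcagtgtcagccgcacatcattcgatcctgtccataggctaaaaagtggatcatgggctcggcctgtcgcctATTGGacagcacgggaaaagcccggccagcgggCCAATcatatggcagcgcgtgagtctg
Msmo1 (chr8:64733579-64733828, minus strand): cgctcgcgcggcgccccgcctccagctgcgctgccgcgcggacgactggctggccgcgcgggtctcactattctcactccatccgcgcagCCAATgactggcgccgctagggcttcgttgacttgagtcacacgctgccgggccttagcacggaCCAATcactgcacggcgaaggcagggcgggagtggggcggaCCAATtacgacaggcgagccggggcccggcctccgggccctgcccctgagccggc
Insig1 (chr5:28071162-28071411, plus strand): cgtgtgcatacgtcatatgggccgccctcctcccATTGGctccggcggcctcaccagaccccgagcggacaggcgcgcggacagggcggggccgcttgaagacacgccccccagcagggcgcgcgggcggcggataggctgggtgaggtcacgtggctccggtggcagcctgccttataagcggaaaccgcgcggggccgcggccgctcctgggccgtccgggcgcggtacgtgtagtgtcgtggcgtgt
In Hmgcs1 the SREBP-type motif began 137 bases before the start, among CCAAT boxes at 237, 176 and 45 bases. In Mvd the boxes lay 60 and 27 bases before the start, in Msmo1 160, 96 and 55 bases, and in Insig1 216 bases.

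The sorts carried the marker genes of their labels, with RNA of other cells beside them. All values below are log2 levels as deposited, and their median over all probe sets and arrays was 4.71. The mean of 4 B cell markers was 9.61 to 9.92 in B cell arrays and 3.70 to 5.08 elsewhere, and the mean of 4 T cell markers was 10.63 to 10.85 in CD4 T cell arrays. Epithelial markers (10 genes) averaged 6.99 to 7.68 in the gland lymphocyte arrays, 3.70 to 4.57 in the spleen arrays and 10.36 to 10.75 in the epithelial sort. The epithelial sort also carried endothelial (8.05 to 8.56, 5 of 5 genes above 4.71) and fibroblast genes (5.86 to 6.43, 4 of 6), which averaged at most 4.87 and 3.17 in lymphocyte arrays. Its replicate 1 stood apart, with T cell markers at 6.85 against 3.92 and 3.72 and macrophage markers at 5.68 against 4.14 and 4.27. Of the 28 members, 24 were above 4.71 in all 17 arrays, and Lss, Hsd17b7, Apoe and Ch25h only in some. The mean of the 16 synthesis genes minus the mean of the other 12 members was -0.73 to -0.61 in spleen CD4 T cells, -1.01 to -0.82 in gland CD4 T cells, -0.97 to -0.94 in spleen B cells, -1.22 to -1.16 in gland B cells and -1.56 to -1.35 in the epithelial sort, with spleen CD4 T cells at one end and the epithelial sort at the other without overlap. The epithelial value rests on 4 of the 12 (Scarb1, Apoe, Insig2 and Ch25h), since against gland lymphocytes the median log2 difference was 0.14 for the 12 and 0.30 for synthesis. In such sorted bulk samples fewer cells of a type and less RNA per cell cannot be told apart.

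**Figure D1:**
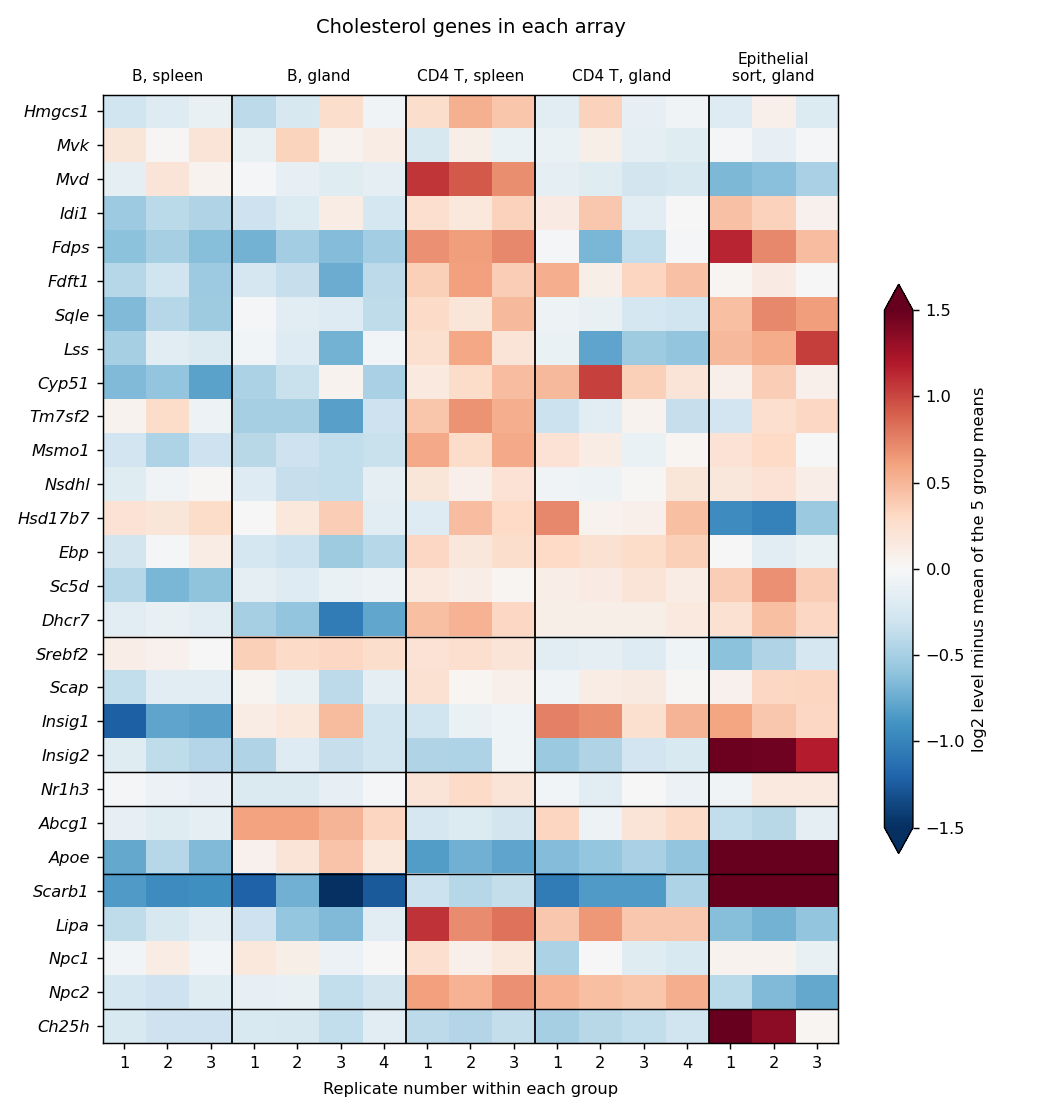
Heat map of the 28 measured members (rows, by role) in the 17 arrays (columns, by group), coloured by log2 level minus the mean of the 5 group means, with the scale ending at 1.5 in either direction. Most synthesis rows, from Hmgcs1 to Dhcr7, are red in spleen CD4 T cells and blue in both B cell groups. In the epithelial sort Apoe and Scarb1 reach the red end of the scale, Insig2 comes near it, and Ch25h reaches it in replicate 1.

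In the spleen, B cells carried lower levels of cholesterol synthesis genes than CD4 T cells for most of the pathway, from Hmgcs1 to Dhcr7. The mean over the 16 synthesis genes was 6.21, 6.30 and 6.26 in the B cell arrays and 6.81, 6.89 and 6.86 in the CD4 T cell arrays. At an adjusted p under 0.05 (limma, Benjamini-Hochberg over 17097 genes), 12 of 16 synthesis genes were lower in B cells and none was higher, and Fdps also passed a 2-fold minimum. Over all genes 11.3% were lower and 11.1% higher at that adjusted p, and 4.52% and 4.63% with the 2-fold minimum as well. The median log2 difference, B minus CD4 T cells, was -0.65 for the 16 genes and 0.00 for all genes.

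Among the mevalonate and isoprenoid steps, Fdps, which makes farnesyl diphosphate, stood at 5.89, 6.0 and 5.86 in spleen B cells and at 7.19, 7.13 and 7.22 in spleen CD4 T cells. The groups did not overlap, and B cells were 2.40-fold lower (log2 difference -1.26, SE 0.17, adjusted p = 2.52e-05). Mvd, the decarboxylase that makes isopentenyl diphosphate, stood at 6.07, 6.42 and 6.27 against 7.30, 7.14 and 6.92, a difference of -0.86 (SE 0.10). All 3 CD4 T cell arrays lay above all 3 B cell arrays for it. Hmgcs1, which condenses the first branched unit, differed by -0.60 (SE 0.16), and the isomerase gene Idi1 by -0.72 (SE 0.14). Mvk, the kinase between them, had similar values in both subsets (6.24 ± 0.10 and 6.03 ± 0.16, SD, n = 3 each) and did not pass (difference 0.22, 95% interval -0.03 to 0.46, adjusted p = 0.224).

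Most of the squalene and sterol steps were lower in B cells too. Sqle, the squalene epoxidase and a slow step of the pathway, stood at 5.49, 5.72 and 5.62 in spleen B cells and at 6.43, 6.33 and 6.63 in CD4 T cells. Its groups were separate, with B cells 1.81-fold lower (adjusted p = 1.93e-05). The lanosterol demethylase Cyp51 differed by -0.98 (SE 0.18), squalene synthase Fdft1 by -0.87 (SE 0.13) and the methylsterol oxidase Msmo1 by -0.83 (SE 0.11). The late desaturase Sc5d (-0.67) and the last reductase Dhcr7 (-0.57) were lower as well. Lss, which closes the ring to lanosterol, and the isomerase Ebp differed by -0.63 and -0.31 with adjusted p of 0.0385 and 0.0308 in the limma fit. These last 2 were near the threshold. Lss lost the adjusted p on leaving out any spleen array but CD4 T cell replicate 3 (0.0529 to 0.163). Ebp lost it without B cell replicate 1 or 2 or CD4 T cell replicate 1 or 3 (0.0563 to 0.172). Lss was also below 4.71, the median of all values, in every spleen B cell array (3.91 to 4.25), so the size of its difference is uncertain. The other 10 passed in all 6 such fits. Tm7sf2 (-0.46, adjusted p = 0.0563), Nsdhl (-0.23) and Hsd17b7 (0.04) did not pass.

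Outside synthesis, 5 of 12 members were lower in spleen B cells and none was higher. Lipa, the lysosomal lipase that frees cholesterol from its esters, stood at 7.98, 8.12 and 8.19 in B cells and at 9.44, 9.07 and 9.17 in CD4 T cells, 2.19-fold lower (adjusted p = 3.98e-06). Npc2, the soluble lysosomal carrier, was at 10.19 ± 0.06 and 11.05 ± 0.08 (SD, n = 3 each), and both of its other probe sets had larger differences (-1.54 and -1.97) than the one used (-0.86). Insig1 (-0.79) and the LXR gene Nr1h3 (-0.31) passed, as did Scap (-0.35), which missed the adjusted p on leaving out any spleen array but CD4 T cell replicate 2 (0.0504 to 0.144). Srebf2, Insig2, Abcg1, Apoe, Scarb1, Npc1 and Ch25h did not pass. Cell division genes, summarised by the mean of 15, stood at 5.75 to 6.19 in spleen B cells and 5.83 to 6.12 in spleen CD4 T cells, with 1 gene higher and 1 lower at the adjusted p.

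Of 43 measured genes from a wider sterol and lipid list, 5 were called higher and 4 lower in spleen B cells, with a median of -0.03. Scd1, the desaturase that makes monounsaturated fatty acids and a target of SREBP, went the opposite way to the sterol enzymes. It stood at 11.43, 11.44 and 11.50 in B cells and at 3.78, 4.44 and 4.79 in CD4 T cells, a log2 difference of 7.12 (SE 0.44, adjusted p = 2.51e-09). The CD4 T cell values straddle the median of all values (4.71), and no detection calls were used, so differences against such dim values have an uncertain size. The scavenger receptor Cd36 (3.69), the sterol hydroxylase Cyp27a1 (2.44), Erlin1 (1.5), a sterol-sensitive protein of the endoplasmic reticulum, and Mylip (1.15), which marks the LDL receptor for degradation, were also higher. Rora, a sterol-binding nuclear receptor, was lower by a log2 difference of -5.08, and the lipoprotein receptor Lrp8 by -3.04. In the dimmer group every array was below 4.71 for Rora, Lrp8, Cd36 and Cyp27a1. Elovl6 and Gramd1b were the other genes called lower.

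**Figure D2:**
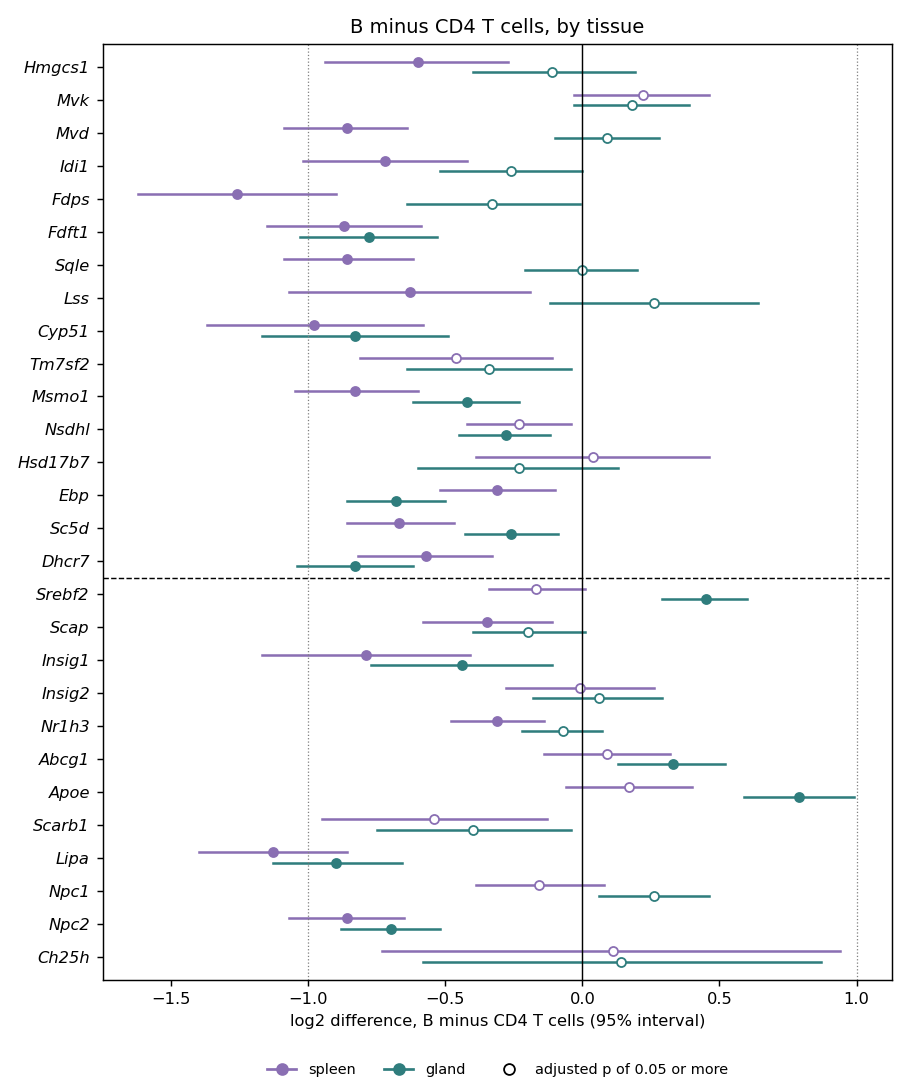
Log2 difference of B cells minus CD4 T cells for each member in spleen (purple) and gland (teal), with 95% intervals from limma; filled points passed an adjusted p under 0.05, dotted lines mark 2-fold, and the dashed line separates the 16 synthesis genes above from the 12 other members. Fdps lies at -1.26 in spleen and -0.33 in gland, Mvd at -0.86 and 0.09, and Sqle at -0.86 and 0.00, whereas Fdft1, Cyp51 and Dhcr7 lie below 0 in both tissues.

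CD4 T cells of the gland carried lower levels of part of the synthesis pathway than CD4 T cells of the spleen. The synthesis mean was 6.60, 6.54, 6.46 and 6.51 in the gland arrays against 6.81, 6.89 and 6.86 in the spleen arrays. In the limma fit 7 of 16 synthesis genes were lower at an adjusted p under 0.05 and none was higher, and Mvd was called at the 2-fold minimum. Over all genes 10.7% were lower and 12.7% higher at that adjusted p, and 1.62% and 5.35% with the 2-fold minimum. The median log2 difference was -0.24 for synthesis, -0.09 for the other members and -0.03 for all genes. The spleen CD4 T cell arrays also served in the comparison with spleen B cells, so both results share those 3 arrays.

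Mvd stood at 6.09, 6.04, 5.95 and 5.98 in gland CD4 T cells and at 7.30, 7.14 and 6.92 in spleen CD4 T cells. The gland arrays lay close together, and all below the spleen arrays, a 2.15-fold fall (log2 difference -1.11, SE 0.10, adjusted p = 4.82e-07). Averaging its probe sets gave -0.93, short of 2-fold. Fdps stood at 6.47, 5.82, 6.13 and 6.48 in the gland and fell 1.94-fold (-0.96, SE 0.16, adjusted p = 3e-04). Its gland arrays were more spread than its spleen arrays, but the groups did not overlap. Without gland replicate 1 or 4 it reached 2-fold, so that 2 members were called.

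Lss fell by 0.84 (SE 0.19) on the log2 scale, Tm7sf2, a sterol reductase, fell by 0.74 (SE 0.15), Sqle by 0.50 (SE 0.10) and Msmo1 by 0.40 (SE 0.10). Sqle stood at 6.07, 6.04, 5.88 and 5.85 in the gland against 6.43, 6.33 and 6.63 in the spleen, with no overlap. These 4 genes, Mvd and Fdps passed in all 7 fits that left out 1 array. Lss was below 4.71, the median of all values, in every gland CD4 T cell array (3.62 to 4.31). Its spleen CD4 T cell arrays lay near that median, so the size of its fall is uncertain. Dhcr7 fell by 0.33 (adjusted p = 0.0409) but passed only without spleen replicate 3, and its adjusted p ran up to 0.156. Fdft1 (-0.10, 95% interval -0.36 to 0.17) and Cyp51 (0.22, -0.15 to 0.59), which differed clearly between the subsets in the spleen, did not pass here. Neither did Hmgcs1 (-0.40, adjusted p = 0.0651), Idi1, Mvk, Nsdhl, Hsd17b7, Ebp and Sc5d (0.04), although another probe set of Sc5d was at -1.19. Centring each array on the median of its genes lowered every gland minus spleen difference in CD4 T cells by 0.16.

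The sensing and export genes of CD4 T cells divided. Insig1, which encodes an anchor of SCAP and is itself an SREBP target, stood at 9.53, 9.47, 9.01 and 9.28 in the gland and at 8.47, 8.67 and 8.71 in the spleen, a rise of 0.71 (SE 0.17, adjusted p = 0.00522). Srebf2 went the other way, at 8.18, 8.19, 8.15 and 8.28 against 8.56, 8.59 and 8.54, and fell by 0.37 (SE 0.08, adjusted p = 0.00202). Gland and spleen arrays were separate for both, but a second probe set of Srebf2 was at -0.02, and the mean of the pair at -0.19. Abcg1, which exports cholesterol to lipoprotein particles, rose by 0.43 (SE 0.10, adjusted p = 0.00511), and its second probe set by a log2 difference of 1.24. After centring on array medians Abcg1 was at 0.27 and missed the adjusted p (0.0634). Nr1h3 fell by 0.30 (SE 0.08). Among the lysosomal genes Lipa fell by 0.40 and Npc1, the membrane exporter of lysosomal cholesterol, by 0.38. Lipa missed the adjusted p without gland replicate 1, 3 or 4 or spleen replicate 1 (0.0534 to 0.135), and Npc1 without spleen replicate 1 (0.0605). Apoe, Scarb1, Scap, Insig2, Npc2 and Ch25h did not pass. In all, 2 of 12 members outside synthesis rose and 4 fell.

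Values of other gene lists moved with these differences, and their part in them was not tested. Gland CD4 T cells had higher epithelial markers than those of the spleen (8 of 10 called), and the epithelial sort had higher levels than gland CD4 T cells for Fdps (7.27 against 6.23), Sqle (6.75 against 5.96) and Lss (5.10 against 3.90), but a lower one for Mvd (5.63 against 6.01). Cell division genes averaged 6.11 to 6.43 in the gland and 5.83 to 6.12 in the spleen (4 of 15 higher and 1 lower at the adjusted p). Immediate early genes averaged 8.89 to 9.23 and 6.23 to 6.41. Red cell markers averaged 4.33 to 5.04 and 6.04 to 6.34 (2 of 3 called lower), and macrophage markers 4.33 to 4.42 and 3.50 to 4.07 (1 of 12, Cd14, called higher). In the wider sterol and lipid list 2 of 43 genes were called higher in gland CD4 T cells and none lower (8 higher and 3 lower at the adjusted p alone). Scd1 stood at 9.07, 6.45, 8.32 and 7.91 against 3.78, 4.44 and 4.79 in the spleen, a log2 difference of 3.60 (SE 0.41, adjusted p = 7.35e-06). The epithelial sort had Scd1 at 10.40 to 10.75 and gland B cells at 11.56 to 11.70. Rora was the other gene called higher, at 1.11 (SE 0.31).

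In B cells the gland carried more of the INSIG gene Insig1 and of the export genes Abcg1 and Apoe than the spleen, while synthesis genes as a group had similar levels. Insig1 stood at 8.88, 8.93, 9.25 and 8.48 in gland B cells and at 7.55, 7.98 and 7.96 in spleen B cells. Every gland array lay above every spleen array, a 2.08-fold rise (log2 difference 1.06, SE 0.17, adjusted p = 0.000411 by limma). It was the only member called at 2-fold, where 2.58% of all genes were called higher and 1.6% lower, and it fell short of 2-fold without gland replicate 3 (0.93), without spleen replicate 1 (0.92) or with array weights (0.96). Abcg1 stood at 10.95, 10.95, 10.86 and 10.68 against 10.23, 10.17 and 10.20, a rise of 0.66 (SE 0.10, adjusted p = 3e-04), and its second probe set rose by 1.70. Apoe, the lipoprotein that accepts exported cholesterol, stood at 5.28, 5.41, 5.64 and 5.38 against 4.45, 4.79 and 4.55, a rise of 0.83 (SE 0.10, adjusted p = 3.6e-05). The gland arrays were higher without overlap for both export genes.

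Epithelial markers were higher in gland B cells too (7 of 10 called), and the epithelial sort had Apoe at 6.98, Insig1 at 9.21 and Abcg1 at 10.05. Abcg1 was thus lower in the epithelial sort than in gland B cells, while Apoe was higher there. Gland CD4 T cells, whose epithelial markers were at a similar level, had Apoe at 4.64 ± 0.07 (SD, n = 4), beside 5.43 ± 0.15 in gland B cells. Macrophage markers averaged 4.23 to 4.7 in gland and 4.12 to 4.64 in spleen B cells, with none of 12 called (1 higher and 1 lower at the adjusted p). The part of these other cells in the Apoe difference was not tested. A setting that left out genes at least 4-fold higher in the epithelial sort than in spleen B cells also removed Apoe. It therefore gave no value for the Apoe rise.

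The synthesis mean was 6.23, 6.26, 6.20 and 6.22 in gland and 6.21, 6.30 and 6.26 in spleen B cells, and the median difference was -0.01. No synthesis gene was called at 2-fold. At the adjusted p alone 2 of 16 rose, Sc5d (0.45, SE 0.09) and Sqle (0.35, SE 0.10), and 3 fell, Tm7sf2 (by 0.62, SE 0.15), Dhcr7 (by 0.58, SE 0.11) and Ebp (by 0.32, SE 0.09), where 7.79% of all genes were higher and 9.87% lower. Dhcr7 stood at 8.85, 8.75, 8.30 and 8.56 against 9.17, 9.23 and 9.19, with no overlap. The probe sets of Sc5d disagreed: the one used rose, another was at -0.62, and their mean gave -0.15. Sqle missed the adjusted p without gland replicate 1, 2 or 3 or spleen replicate 1 or 3 (0.0515 to 0.129), Ebp without gland replicate 3 or 4 or spleen replicate 2 or 3 (0.0519 to 0.139) and Tm7sf2 without spleen replicate 2 (0.0637). Srebf2 rose by 0.24 (adjusted p = 0.0372), and missed it on leaving out any of the 7 arrays but gland replicate 4 (0.0623 to 0.132). Fdps (-0.02), Mvd (-0.15), Fdft1 (-0.01, 95% interval -0.27 to 0.26) and Hmgcs1 (0.10, -0.22 to 0.41) did not pass. Cell division genes fell in the same arrays, with 8 of 15 called lower and group means of 4.92 and 5.93. Immediate early genes rose (13 of 14 called, 8.87 to 9.47 against 5.71 to 5.97), and red cell markers averaged 4.52 to 5.28 against 5.97 to 6.49 (1 of 3 called lower). The part of these lists was not tested.

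In the wider list 4 of 43 genes were called higher and 2 lower in gland B cells. Gpr183, the oxysterol receptor that positions B cells, stood at 10.55, 10.60, 10.46 and 10.82 in the gland and at 8.46, 8.57 and 8.66 in the spleen, a log2 rise of 2.05 (SE 0.44, adjusted p = 0.004). Its groups were far apart. In CD4 T cells Gpr183 stood at 8.71, 9.31, 9.22 and 9.23 in the gland and at 7.93, 7.97 and 7.95 in the spleen. That difference of 1.17 (SE 0.44) did not overlap but did not pass (adjusted p = 0.0669 by limma). The difference of the changes did not pass either (0.87, adjusted p = 0.467), so the rise is not shown to be particular to B cells. The fatty acid ligase Acsl3 rose by 1.18. Rora was called higher too, but all its B cell arrays were below the median of all values (3.71 to 4.53 in gland, 1.95 to 3.54 in spleen), so no size is read from it. Lrp8 rose by 2.12 (SE 0.59), but its gland arrays were at 7.74, 7.71, 4.30 and 6.04 and so overlapped the spleen range of 4.15 to 4.47. Cd36 fell by 2.30 (SE 0.14) and Lcat, which esterifies cholesterol in lipoproteins, by 1.66. In the gland arrays Lcat was below 4.71 (4.30 to 4.58) and Cd36 near it (4.37 to 4.84), so both sizes are uncertain.

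**Figure D3:**
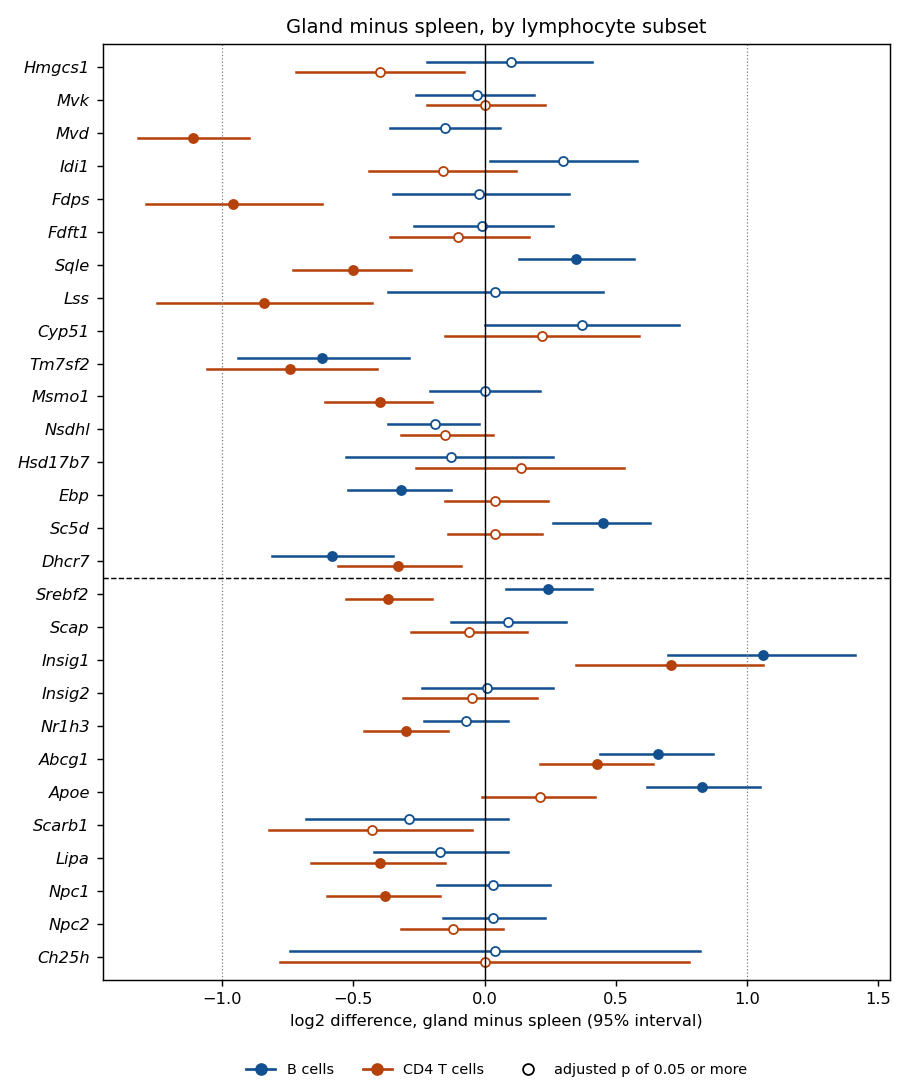
Log2 difference of gland minus spleen for each member in B cells (blue) and CD4 T cells (orange), with 95% intervals from limma; filled points passed an adjusted p under 0.05, dotted lines mark 2-fold, and the dashed line separates the 16 synthesis genes above from the 12 other members. Mvd lies at -1.11 in CD4 T cells and -0.15 in B cells and Sqle at -0.50 and 0.35, whereas Insig1 (0.71 and 1.06) and Abcg1 (0.43 and 0.66) lie above 0 in both.

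The gland difference itself differed between B and CD4 T cells for some members. The test of the difference of the changes, B minus CD4 T cells, passed the adjusted p for 4 of 16 synthesis genes and 2 of 12 others, all with a higher value in B cells, and none reached 2-fold (of all genes 3.57% were higher and 6.55% lower at the adjusted p, and 1.22% and 3.87% with the 2-fold minimum). These were Mvd (0.96, SE 0.14, adjusted p = 0.000224), Fdps (0.94, SE 0.22, adjusted p = 0.0119), Sqle (0.85, SE 0.15, adjusted p = 0.0011), Sc5d (0.41, adjusted p = 0.0431), Srebf2 (0.61, SE 0.11, adjusted p = 0.00132) and Apoe (0.63, SE 0.14, adjusted p = 0.00867). Sc5d missed the adjusted p in 13 of the 14 fits that left out an array, and passed without spleen B cell replicate 1. Without gland B cell replicate 3, spleen B cell replicate 2, gland CD4 T cell replicate 1 or 4 or spleen CD4 T cell replicate 3, 1 or 2 members reached 2-fold, and 3 did after centring each array on its median. With array weights 11 members passed the adjusted p in place of 6. For the Srebf2 probe set used, the gland arrays were the higher ones in B cells and the lower ones in CD4 T cells, without overlap in either. Insig1 (0.35, 95% interval -0.16 to 0.85) and Abcg1 (0.23, -0.07 to 0.53) did not pass this test. In the wider list 3 of 43 genes, Scd1 (-3.44), Cd36 (-2.25) and Lcat (-1.23), were called, all with a lower value in B cells. Each had arrays below 4.71, as did Apoe among the members, so these sizes are uncertain.

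Within the gland, B cells were again lower than CD4 T cells for part of the pathway, though not for the same genes throughout. At the adjusted p 7 of 16 synthesis genes were lower and none higher (limma), none reached 2-fold, and the median was -0.27 against 0.04 for all genes, of which 16.1% were lower and 14.3% higher at the adjusted p, and 5.97% and 3.73% with the 2-fold minimum. Dhcr7 stood at 8.85, 8.75, 8.30 and 8.56 in gland B cells and at 9.43, 9.43, 9.43 and 9.49 in gland CD4 T cells, a difference of -0.83 (SE 0.10, adjusted p = 7.11e-06). Cyp51 differed by -0.83, Fdft1 by -0.78, Ebp by -0.68, Msmo1 by -0.42, Nsdhl by -0.28 and Sc5d by -0.26. For Dhcr7, Ebp and Nsdhl the gland value was larger in size than the spleen value (-0.57, -0.31 and -0.23), a difference that did not pass its test for any of these. B cell arrays lay below all CD4 T cell arrays for each of these 7. As they were picked by the adjusted p, this is no separate support, and the share of all genes so separated was not counted. Sc5d missed the adjusted p without B cell replicate 2 (0.0588) or CD4 T cell replicate 3 (0.0603). Centring each array on its median raised every B minus CD4 T difference in the gland by 0.12, and Sc5d (-0.14), Nsdhl (-0.17) and Insig1 (-0.32) then missed the adjusted p. The members with no remaining difference included Sqle (5.96 ± 0.14 and 5.96 ± 0.11, SD, n = 4 each; difference 0.00, 95% interval -0.21 to 0.20) and Mvd (0.09, -0.10 to 0.28). The B minus CD4 T difference was smaller in size in gland than in spleen for 12 of 16 synthesis genes, of which the test above passed for 4.

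Among the other members in the gland, 3 were higher in B cells, Apoe (0.79, SE 0.09), Srebf2 (0.45, SE 0.07) and Abcg1 (0.33, SE 0.09), and 3 were lower, Lipa (-0.90, SE 0.11), Npc2 (-0.70, SE 0.08) and Insig1 (-0.44, SE 0.15). Insig1 missed the adjusted p in 6 of 8 fits that left out an array, all but those without B cell replicate 3 or CD4 T cell replicate 3 (0.0673 to 0.146). Cell division genes averaged 4.76 to 5.17 in gland B cells and 6.11 to 6.43 in gland CD4 T cells (9 of 15 called lower in B cells), and the gland difference itself was lower in B than in CD4 T cells for 10 of 15. Their part in the sterol differences was not tested. In the wider list 6 of 43 genes were called higher and 3 lower. Rora (-4.62), Elovl6 (-2.57) and Gramd1b (-2.05), which carries sterol between membranes, were the lower ones. Scd1 (3.68), Cyp27a1 (2.28) and Erlin1 (1.51) were among the higher ones. In the dimmer group Apoe (4.56 to 4.73), Rora (3.71 to 4.53), Elovl6 (4.17 to 4.73) and Cyp27a1 (4.17 to 4.93) lay near or below 4.71. The sizes of these differences are uncertain.

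**Figure D4:**
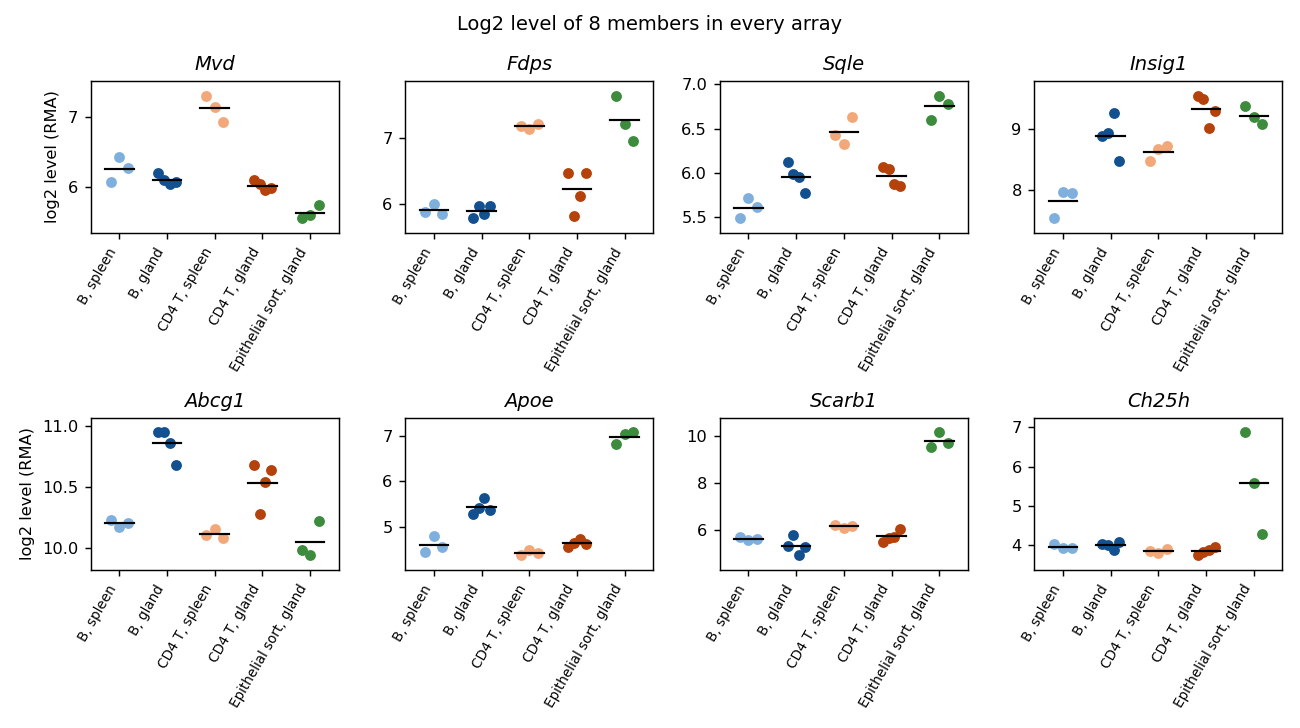
Log2 level of 8 members in each array (points), by group, with the group mean as a black line; each panel has its own axis, which does not start at 0. Mvd, Fdps and Sqle are high in spleen CD4 T cells and lower in gland CD4 T cells, Insig1 and Abcg1 are higher in gland than in spleen lymphocytes, and Apoe, Scarb1 and Ch25h are highest in the epithelial sort, with Ch25h spread from 4.27 to 6.87.

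Among the members, the highest fold differences of the epithelial sort were in Scarb1, Apoe, Insig2 and Ch25h, genes of uptake, export, sensing and oxysterol synthesis. Scarb1, the receptor that takes up cholesterol esters from high density lipoprotein, stood at 9.52, 10.14 and 9.67 in the epithelial sort and between 4.93 and 6.05 in the 8 gland lymphocyte arrays. Against both gland lymphocyte subsets averaged it was 19.2-fold higher (log2 difference 4.27, SE 0.16, adjusted p = 1.44e-12 by limma), with no array near the other groups. Apoe stood at 6.82, 7.04 and 7.08 and was 3.86-fold higher (SE 0.09 on the log2 scale). Gland CD4 T cells had Apoe near the median of all values (mean 4.64), so this size is uncertain. Insig2, the INSIG form less dependent on SREBP, stood at 9.23, 9.21 and 8.93 against 7.20 to 7.56 and was 3.30-fold higher, with all 3 of its probe sets between 1.66 and 1.92 on the log2 scale. In all, 6 members were called higher and 1 lower, where 14.9% of all genes were called higher and 9.81% lower, and without epithelial replicate 1 the counts were again 6 and 1. Endothelial and fibroblast genes were high in the same arrays (medians of 4.00 and 3.12 over 5 and 6 genes), as were red cell genes (median 3.27, 2 of 3 called), and the part of these in the differences was not tested.

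Ch25h, the enzyme that makes an oxysterol from cholesterol, stood at 6.87, 5.58 and 4.27 in the 3 epithelial arrays and at 3.75 to 4.07 in gland lymphocytes. It was called higher (3.14-fold, adjusted p = 0.000333 by limma). Its highest value was in replicate 1, in which T cell and macrophage markers were also high. Without that replicate the log2 difference fell from 1.65 to 1.0. The SD was 1.3 in the epithelial sort and 0.08 in each gland lymphocyte subset. The fit shared a spread over all groups, so this adjusted p does not measure the epithelial spread. All gland lymphocyte arrays were below 4.71, so the size of the difference is uncertain. Abcg1 (-0.65), Npc2 (-0.74), Lipa (-0.67) and Srebf2 (-0.52) were lower in the epithelial sort at the adjusted p. Npc1 and Insig1 did not pass.

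Among synthesis genes 9 of 16 were higher and 2 lower at the adjusted p (26.7% and 35.3% of all genes). These counts and shares also required a mean beyond both lymphocyte subsets. Fdps stood at 7.64, 7.22 and 6.96 and was 2.31-fold higher, Lss at 4.89, 4.96 and 5.44 and was 2.09-fold higher, and Sqle was higher by 0.79 (SE 0.09). Hsd17b7, a reductase of sterol trimming, was 2.07-fold lower, at 4.28, 4.21 and 4.67. Its other probe sets were at -0.46 and -0.51 on the log2 scale, against -1.05 for the one used. Hsd17b7 in the epithelial arrays and Lss in the gland lymphocyte arrays lay below 4.71, so the sizes of both differences are uncertain. Lss was short of 2-fold without B cell replicate 3 (0.98) or epithelial replicate 3 (0.89), and Hsd17b7 without CD4 T cell replicate 1 (-0.99) or epithelial replicate 2 (-0.96). Tm7sf2, Idi1, Scap and Nr1h3 each missed the adjusted p without 2 of the 3 epithelial arrays in turn (replicates 2 and 3, but 1 and 2 for Idi1; 0.054 to 0.132). These directions depended on scaling. Centring each array on the median of its genes lowered every epithelial difference by 0.31. With it Idi1 (0.00), Msmo1 (0.00), Nsdhl (-0.03), Scap (-0.03) and Nr1h3 (-0.13) no longer pointed up, Fdps was at 0.90 and Lss at 0.75, and 7 members were higher and 10 lower at the adjusted p in place of 15 and 6. For Msmo1, averaging its probe sets also gave -0.53. Scarb1, Apoe, Insig2 and Ch25h were called under both scalings.

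In the wider list 15 of 43 genes were called higher in the epithelial sort and 5 lower. Oxysterol enzymes were among the former. Cyp7b1, which turns the Ch25h product toward the Gpr183 ligand, stood at 7.66, 7.82 and 7.91 against 3.12 to 3.50 in gland lymphocytes, a log2 difference of 4.46 (SE 0.08, adjusted p = 5.77e-16). Gpr183 itself was lower by a log2 difference of -4.94 (SE 0.39), at 6.66, 4.12 and 3.97. Me1, a source of reducing power for lipid synthesis (4.90), Lrp1 (3.39) and Vldlr (3.16), both lipoprotein receptors, were higher, and Lrp8 (-2.88) was lower. Cyp7b1, Lrp1 and Vldlr were below 4.71 in every gland lymphocyte array, so the size of their differences is uncertain.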

How the data were processed

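RNA of 17 sorted samples was amplified (NuGEN Ovation), biotin-labelled and hybridised to expression arrays. The deposited values are log2 expression per probe set, normalised by RMA in Partek per the submitters' processing notes; their versions are not given in the sources used here. RMA usually equalises the distributions of arrays, which can remove a change shared by most genes. Of 45141 probe sets, 28898 had exactly 1 gene symbol, 551 had several and 15692 were not listed in the annotation table. Each of 17097 genes was represented by its brightest probe set on average. RNA integrity was over 8 except in 3 samples (7.8, 7.7 and 7.2) that could not be matched to arrays. The number of arrays limits the precision.

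A group-means model was fitted to all 17 arrays with limma 3.58.1 in R 4.3.3 (eBayes, Benjamini-Hochberg over 17097 genes). A gene was called at an adjusted p under 0.05 and a fold of at least 2. For the epithelial sort its mean also had to lie beyond both lymphocyte subsets. "Passed" refers to the adjusted p without the fold minimum. Counts and shares at the adjusted p for the epithelial sort kept the rule on both subsets. The script was tested on simulated data. Members on which the results turn were named with all arrays, and other pathway genes by size of change, at most 6 per comparison, together with the rest of a list where few were called. The members and lists were chosen with earlier results of these data known. Alternatives were a filter on low values, the mean of probe sets, centring, quantile normalisation, eBayes trend and array weights. Others were a replicate block, only the arrays compared and leaving out each array. A further setting for gland against spleen left out genes at least 4-fold higher in the epithelial sort than in the spleen subset.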

Additional observations from a re-analysis of the deposited data

Results flagged for a closer look

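The gland change differed between B and CD4 T cells for 6 members by limma's test of the difference itself, B minus CD4 T cells on the log2 scale. The values were 0.96 for Mvd (adjusted p = 0.000224), 0.94 for Fdps (0.0119), 0.85 for Sqle (0.0011), 0.41 for Sc5d (0.0431), 0.61 for Srebf2 (0.00132) and 0.63 for Apoe (0.00867). Mvd and Fdps passed as lower in gland CD4 T cells and did not pass in gland B cells. Sqle and Srebf2 were higher in gland B cells and lower in gland CD4 T cells, but a second Srebf2 probe set was at -0.02 in CD4 T cells. In B cells Sqle missed the adjusted p in 5 of 7 fits that left out an array, and Srebf2 in 6 of 7.

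In 3 of 56 groups of 4 arrays tested, 1 array stood far from the others by Dixon's criterion, which chance alone gives in about 1 of 20. All were the highest array in gland CD4 T cells: 6.62 for Sc5d (replicate 3), 9.49 for Dhcr7 (replicate 4) and 9.01 for Lipa (replicate 2). The other 3 arrays lay between 6.53 and 6.55 for Sc5d, at 9.43 for Dhcr7 and at 8.77 for Lipa, so these gaps were small.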

How the results depend on the processing

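Dropping the 2-fold minimum gave the counts at the adjusted p. They were 6 higher and 3 lower in gland B cells, 2 and 11 in gland CD4 T cells, and 6 higher for the difference of the changes. In the epithelial sort they were 15 and 6, with the rule on both lymphocyte subsets kept. For B against CD4 T cells they were 3 and 10 in the gland and 17 lower in the spleen. With the mean of probe sets the called counts were 2 higher in gland B cells, 0 lower in gland CD4 T cells, 2 lower in the epithelial sort and 2 lower in gland B against CD4 T cells. Medians of synthesis were then -0.36 in gland CD4 T cells, 0.23 for the difference and 0.18 in the epithelial sort, and the other members' median difference was 0.30. Sc5d turned to -0.15 in gland B cells and Msmo1 to -0.53 in the epithelial sort. Centring gave 2 members called lower and 1 passing higher in gland CD4 T cells (medians -0.40 and -0.25), 3 called higher for the difference (0.41 and 0.37), 2 called lower with 7 passing higher and 10 lower in the epithelial sort (-0.01 and -0.17), and 5 passing higher for B against CD4 T cells in the gland (-0.15 and 0.11). It turned Idi1 (0.00), Msmo1 (0.00), Nsdhl (-0.03), Scap (-0.03) and Nr1h3 (-0.13) in the epithelial sort. Quantile normalisation gave 2 called lower in gland CD4 T cells (-0.30), 2 called higher for the difference (0.40), medians of 0.07 and 0.02 in the epithelial sort with Nr1h3 at -0.11, and 5 passing higher for B against CD4 T cells in the gland (-0.15 and 0.07). The filter on low values gave synthesis medians of -0.16 in gland CD4 T cells and 0.15 for the difference, and other members' medians of -0.07 for B against CD4 T cells in the gland and -0.31 in the spleen. Array weights gave 0 called higher in gland B cells and 11 passing for the difference. Over the settings that kept all arrays, 185 recomputed counts stayed within 1.5 times the reported one and 27 did not; 78 medians moved by less than the spread between arrays, 18 by more and 4 changed sign; 605 member results kept their call, 36 lost it and 8 changed sign. The causes of these moves were not tested.

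Leaving out each array in turn gave 0 to 1 members called higher and 1 to 3 passing lower in gland B cells. It gave 1 to 2 called lower in gland CD4 T cells with synthesis medians of -0.29 to -0.23. For the difference of the changes it gave 0 to 2 called higher, 0 to 1 passing lower and medians of 0.24 to 0.36. It gave 0 to 1 called lower in the epithelial sort, and synthesis medians of -0.32 to -0.25 for B against CD4 T cells in the gland and -0.69 to -0.60 in the spleen.

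Groups share replicate numbers, and deviations of same-numbered arrays from their group means had correlations of -0.397 to 0.215. With 3 or 4 arrays per group this check cannot tell whether same-numbered samples came from the same mice. The samples were fitted as unpaired. With the replicate number as a block, 2 members were called lower in gland CD4 T cells in place of 1.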
